A study of Mus musculus with 12 samples.

Results

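Hmox1 and 9 further genes of the NRF2 antioxidant response were followed in bulk mouse retina through ageing, a single mild elevation of intraocular pressure (IOP) and repeated elevations. The 10 genes are Hmox1, Nqo1, Slc7a11, Gclc, Gclm, Gsr, Txnrd1, Srxn1, Prdx1 and Nfe2l2. They were taken by gene symbol, and each is 1 row of the 25124 rows in each of the 2 deposited expression tables. All 10 passed the filter on low values in both tables.

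NRF2, the protein made from Nfe2l2, is a transcription factor that the adaptor protein KEAP1 keeps low by steering it to degradation. Oxidants and electrophiles that modify KEAP1 let NRF2 accumulate, pair with small MAF proteins and bind antioxidant response elements near genes for glutathione synthesis, the thioredoxin system, quinone reduction and haem breakdown. Hmox1, which encodes the inducible haem oxygenase, is also held down by the haem sensor BACH1 and is induced in macrophages and in stressed glia, so that its RNA in a whole tissue can have several cellular sources.

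The mice were wild type (labelled WT, and called C57BL/6 or C57BL/6J in the study's text). In each animal 1 eye was held at 30 mmHg for 1 h by fluid pressure through a needle in the anterior chamber, and the other eye was left untreated as the contralateral control; a cannulated eye without raised pressure is not among these libraries. Retinas were collected on day 2 and poly(A) RNA was sequenced with strand-specific libraries. The single-IOP table holds 4 groups of 2 libraries, namely 3mo control and 3mo IOP from 3-month-old mice and 18mo control and 18mo IOP from 18-month-old mice. The repeated-IOP table holds 4xIOP control and 4xIOP, again with 2 libraries each, from mice aged 3 months when the first of 4 biweekly elevations was given and sampled on day 2 after the last, so older at collection. The labels number the libraries within a group as replicates without naming animals, so p-values measure the spread between these libraries.

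The libraries held between 39766236 and 59455057 tags, and the fewest reads behind any value of the 10 genes were 53, for Hmox1 in a 4xIOP control library. Rod markers dominated every library, with a summed level between 4575 and 23456 FPKM over 6 genes. The libraries of the young single-IOP groups stood apart in transcript length: the median level of short transcripts was between 3.03 and 9.12 times that of long transcripts in the 3mo libraries and between 1.52 and 1.89 times in the 18mo libraries, with 3.03 and 9.12 both in the 3mo control group. In the repeated series it was 2.91 in 4xIOP replicate 2 and between 1.97 and 2.12 in the other libraries, and 53.7% of tags lay in exons in that library against 44.2% in 4xIOP replicate 1. Pigment epithelium markers, 8 genes, summed to between 200.6 and 569 FPKM in the 3mo libraries and to at most 11.4 FPKM in the 18mo libraries. Because the retina was measured in bulk, fewer cells of a type and less RNA per cell cannot be told apart.

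The 10 transcripts were the same in both tables (mm10). Hmox1 (NM_010442) lies at chr8:75093618-75100593 and Nqo1 (NM_008706) at chr8:107388225-107403205 on the minus strand. Of the glutathione genes, Slc7a11 (NM_011990) lies at chr3:50364936-50443613 on the minus strand, Gclc (NM_010295) at chr9:77754535-77794489, Gclm (NM_008129) at chr3:122245557-122267215 and Gsr (NM_010344) at chr8:33653238-33698162. Txnrd1 (NM_015762) lies at chr10:82859206-82897724, Srxn1 (NM_029688) at chr2:152105524-152111376, Prdx1 (NM_011034) at chr4:116685599-116700000 and Nfe2l2 (NM_010902) at chr2:75675513-75704663 on the minus strand. Exons of Gclm overlap those of a transcribed processed pseudogene, Gm6061, on the same strand, so that the split of reads between these genes is uncertain.

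RefSeq promoter windows of 300 bases (GRCm38.p6, the assembly called mm10) were at hand for 7 of the 10 genes at the transcript start used in the files. They were searched on both strands for TGACNNNGC, the core of the antioxidant response element, since the genes are grouped by this element. It occurred in 5 of the 7 windows, those of Gclm, Txnrd1, Srxn1, Prdx1 and Nfe2l2, and in 12.4% of all 32851 windows. Nqo1 and Slc7a11 had no match in these windows. In Prdx1 the match holds TGACTCA, the site that AP-1 proteins also bind. The 250 bases before the start site are shown for the 4 genes with a match in that stretch, and for Nqo1, which fell with age together with Prdx1, with the match in capitals and each sequence read 5′ to 3′ along the gene. They lie at chr3:122245307-122245556 on the plus strand for Gclm, chr10:82858956-82859205 on the plus strand for Txnrd1, chr4:116685349-116685598 on the plus strand for Prdx1, chr2:75704664-75704913 on the minus strand for Nfe2l2 and chr8:107403206-107403455 on the minus strand for Nqo1.
Gclm: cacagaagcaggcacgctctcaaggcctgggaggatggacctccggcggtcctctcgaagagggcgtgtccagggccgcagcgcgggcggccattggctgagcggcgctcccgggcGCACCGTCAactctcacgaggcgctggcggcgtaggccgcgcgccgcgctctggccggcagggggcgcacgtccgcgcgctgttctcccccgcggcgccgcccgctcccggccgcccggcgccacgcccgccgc
Txnrd1: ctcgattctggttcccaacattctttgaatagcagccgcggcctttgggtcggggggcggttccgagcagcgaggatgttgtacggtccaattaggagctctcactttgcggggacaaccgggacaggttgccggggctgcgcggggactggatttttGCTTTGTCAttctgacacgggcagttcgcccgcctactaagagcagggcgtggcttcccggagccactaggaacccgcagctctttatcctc
Prdx1: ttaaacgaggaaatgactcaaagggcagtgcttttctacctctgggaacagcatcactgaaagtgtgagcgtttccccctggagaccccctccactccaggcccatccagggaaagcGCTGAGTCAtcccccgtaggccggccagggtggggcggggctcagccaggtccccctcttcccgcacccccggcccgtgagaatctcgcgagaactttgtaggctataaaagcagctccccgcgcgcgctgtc
Nfe2l2: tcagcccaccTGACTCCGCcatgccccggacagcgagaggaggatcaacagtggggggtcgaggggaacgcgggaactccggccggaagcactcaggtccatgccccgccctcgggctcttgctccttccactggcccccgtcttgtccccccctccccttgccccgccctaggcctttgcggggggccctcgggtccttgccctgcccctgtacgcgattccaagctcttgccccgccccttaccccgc
Nqo1: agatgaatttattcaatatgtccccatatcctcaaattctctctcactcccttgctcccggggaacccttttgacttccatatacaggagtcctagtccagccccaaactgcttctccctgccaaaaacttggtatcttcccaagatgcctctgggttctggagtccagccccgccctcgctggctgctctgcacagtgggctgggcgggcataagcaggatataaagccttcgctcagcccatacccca
Counted from the start site, the capitals begin at base -134 in Gclm, -133 in Prdx1, -92 in Txnrd1 and -240 in Nfe2l2, and in Srxn1 the match lies after the start site. These are matches of letters and were not tested for binding.

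**Figure D1:**
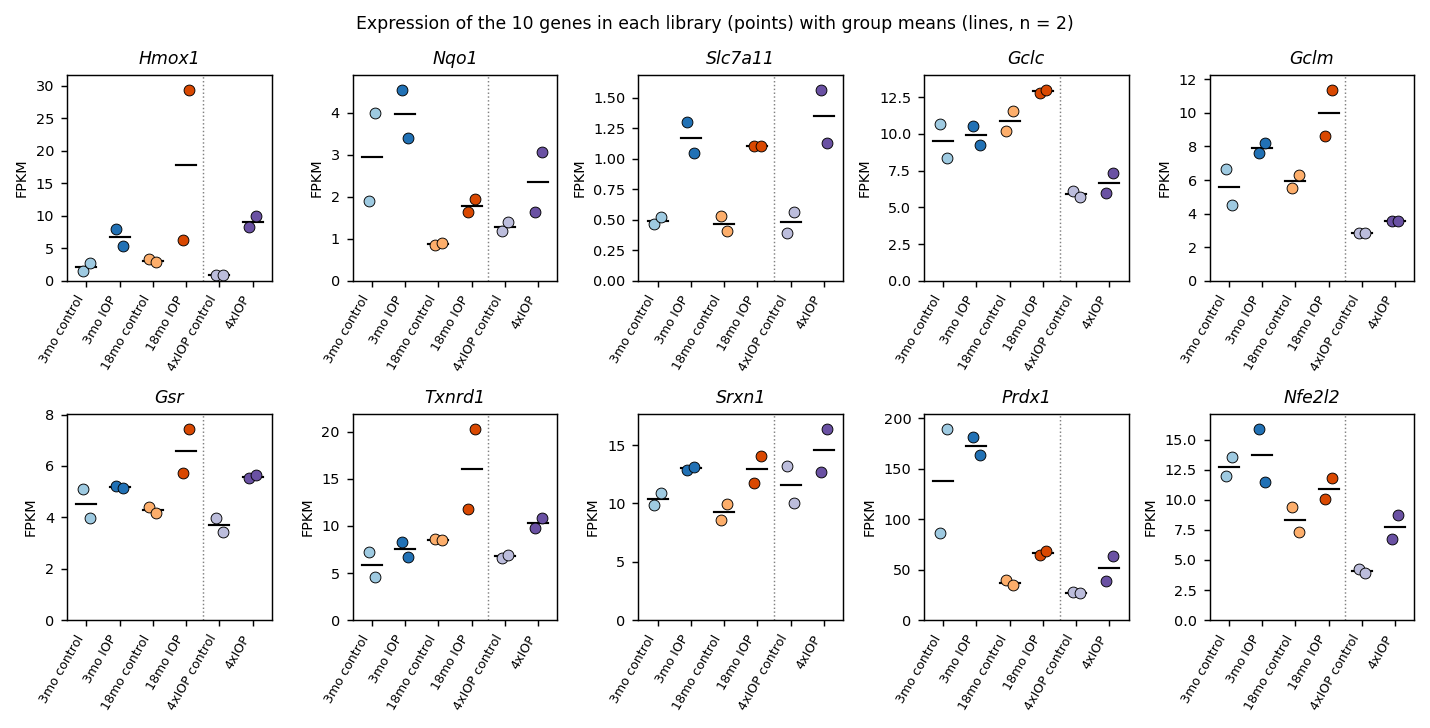
FPKM of each of the 10 genes (1 panel each, linear axis from 0) in the 12 libraries, as points by group, with the mean of the 2 libraries as a line; the dotted line separates the 2 tables, whose levels are not compared. Hmox1 stands at 29.4 FPKM in an 18mo IOP library and at most 7.97 FPKM in the other single-IOP libraries, and all 4 young libraries of Prdx1, from 86.4 FPKM, lie above the old ones, at most 68.0 FPKM.

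A gene was called changed where the adjusted p from limma, by Benjamini-Hochberg over all genes of a table, was at most 0.05 and the fold change at least 2-fold on the scale of log2(FPKM + 0.5), which understates the change of low genes. After 4 elevations Hmox1 was called higher and no other member passed both limits, 1 of 10, where 5.45% of all 13718 genes tested were called higher. After a single elevation no member was called at 3 months, where 0.575% of 13731 genes were, or at 18 months, where 0.124% were. At 18 months the smallest adjusted p of any gene was 0.0443, close to the limit. The study's test of counts, at the same limits, called more genes at both ages, and more at 18 months than at 3 months. Between the ages the control eyes had 2 members called lower, Nqo1 and Prdx1, where 11.6% of genes were called lower, and the treated eyes had Txnrd1 called higher and Prdx1 lower, where 10.2% and 11.6% of genes were called. In control eyes 2 members were higher and 3 lower at 18 months with no overlap between the libraries, as were 45.7% and 32.8% of all genes. In treated eyes these were 4 and 2 members, beside 43.2% and 34.5% of all genes.

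All 10 genes had log2 fold changes above 0 in each of the 3 comparisons with contralateral eyes, except that Gclc and Nfe2l2 at 3 months were below 0 with median-of-ratios, quantile and voom scaling, and that Nqo1, Gclc, Prdx1 and Nfe2l2 at 3 months were below 0 with 1 or another library left out, at -0.021, -0.11, -0.14 and -0.14 at the lowest. Both treated libraries lay above both controls for 5 genes at 3 months, 10 at 18 months and 8 after 4 elevations, where 28.6%, 36.5% and 27.7% of all genes tested did so. The median log2 fold change of the 10 was 0.39 at 3 months, beside 0.13 over all genes. It was 0.71 at 18 months, beside 0.09, and 0.60 after 4 elevations, beside 0.10. At 18 months none of the 10 passed the adjusted test and 8 had an unadjusted p under 0.05, which 1297 of the 13731 genes had.

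Hmox1 encodes the enzyme that splits haem into biliverdin, carbon monoxide and iron. In untreated young eyes it stood at 1.52 and 2.76 FPKM, and after a single elevation at 7.97 and 5.40 FPKM. In 18-month-old mice it was at 3.42 and 2.82 FPKM in control eyes and at 6.35 and 29.4 FPKM in treated eyes. In the repeated series the control eyes had 0.849 and 0.949 FPKM and the 4xIOP eyes 8.22 and 9.91 FPKM. Every treated library was above every control library of its age or series, and 18mo IOP replicate 2 was above all other libraries.

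After 4 elevations mean Hmox1 rose from 0.899 ± 0.0707 to 9.06 ± 1.196 FPKM (SD, n = 2), a ratio of 10.1, with a log2 fold change of 2.77 ± 0.20 (SE) and an adjusted p of 1.28e-06. After a single elevation the means were 2.14 ± 0.880 and 6.68 ± 1.82 FPKM at 3 months (SD, n = 2), a ratio of 3.12, and the log2 fold change of 1.46 ± 0.59 (SE) had an adjusted p of 0.524. At 18 months they were 3.12 ± 0.423 and 17.9 ± 16.3 FPKM (SD, n = 2), a ratio of 5.73, and the log2 fold change of 1.99 ± 0.59 (SE) had an adjusted p of 0.244. Without 18mo IOP replicate 2 that log2 fold change was 0.93, and without replicate 1 it was 3.05 with an adjusted p of 0.0104, so that the call turned on which treated library was kept. Between the treated eyes of the ages the log2 difference was 1.02 ± 0.59 (SE, adjusted p = 0.192), and it was 2.08 (adjusted p = 0.0127, called) without 18mo IOP replicate 1 and -0.046 without replicate 2.

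Markers of several cell types also differed between treated and control eyes. After 4 elevations all 8 markers of infiltrating monocytes and macrophages and 9 of 10 microglia markers were called higher, and their sums went from 1.32 to 1.495 FPKM in control libraries to 124 to 142 FPKM, and from 9.84 to 11.01 FPKM to 124 to 127 FPKM. Ccr2, the chemokine receptor of inflammatory monocytes, was between 0.013 and 4.18 FPKM in that series and at most 0.16 FPKM in the single-IOP libraries. After a single elevation none of the 10 microglia markers and none of the 4 monocyte and macrophage markers that could be tested was called, while the microglia sum was 20.3 to 31.9 FPKM in 3mo control and 73.7 to 84.9 FPKM in 3mo IOP, and 75.5 to 88.1 FPKM in 18mo control and 114 to 239 FPKM in 18mo IOP. The sum of the monocyte and macrophage list was 6.74 to 8.11 and 21.4 to 77.9 FPKM at 3 months, and 6.72 to 12.9 and 50.0 to 53.4 FPKM at 18 months. Within the 18mo IOP group the library with the higher Hmox1 had the lower microglia sum, 114 against 239 FPKM, and a similar monocyte sum, 53.4 against 50.0 FPKM. The rod sum was 9297 to 9707 FPKM in 4xIOP control and 4575 to 6877 FPKM in 4xIOP, 15318 to 17154 FPKM in 18mo control and 11616 to 13876 FPKM in 18mo IOP, and 20566 to 23456 FPKM in 3mo control and 20447 to 21230 FPKM in 3mo IOP. Lens markers, 7 genes, summed to 0.578 to 4.58 FPKM in 4xIOP control and 47.8 to 109.99 FPKM in 4xIOP, where 5 of 5 tested were called higher. At 18 months they summed to 2.92 and 4.26 FPKM in control and to 5.75 and 20.4 FPKM in IOP replicates 1 and 2, in the order of Hmox1, with all 4 tested higher without overlap and none called. At 3 months they were at 6.85 and 37.7 FPKM in IOP replicates 1 and 2, against the order of Hmox1. Muller glia markers, 6 genes, summed to 1447 to 1822 FPKM in 18mo control and 2504 to 2703 FPKM in 18mo IOP, to 659 to 1003 and 743 to 1028 FPKM at 3 months, and to 859 to 928 FPKM in 4xIOP control and 772 to 788 FPKM in 4xIOP. Although this last sum was lower, 4 of the 6 markers were higher after 4 elevations and 2 lower, all without overlap. Their median log2 fold change was 0.44. Pigment epithelium markers were called lower after 4 elevations in 4 of 4 tested, with sums of 28.3 to 37.4 FPKM in control and 3.01 to 6.62 FPKM in 4xIOP. Red blood cell markers, 6 genes, summed to 166 to 426 FPKM in 18mo control and 44.3 to 54.3 FPKM in 18mo IOP, with all 5 tested lower without overlap and none called. At 3 months these sums overlapped, at 19.5 to 262 and 29.3 to 313 FPKM, as they did in the repeated series, at 37.3 to 56.1 and 37.5 to 56.8 FPKM. Retinal ganglion cell markers, 7 genes, summed to 325 to 630 and 453 to 523 FPKM in 3mo control and 3mo IOP. They summed to 35.2 to 81.0 and 31.7 to 88.5 FPKM at 18 months. In the repeated series they were at 138 to 255 and 137 to 255 FPKM, so control and treated sums overlapped throughout. With in situ probes that included Hmox1, the study reported all transcripts raised in ganglion cells after IOP, and several also in other retinal cells. The part of these cells in the level of Hmox1 was not tested.

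**Figure D2:**
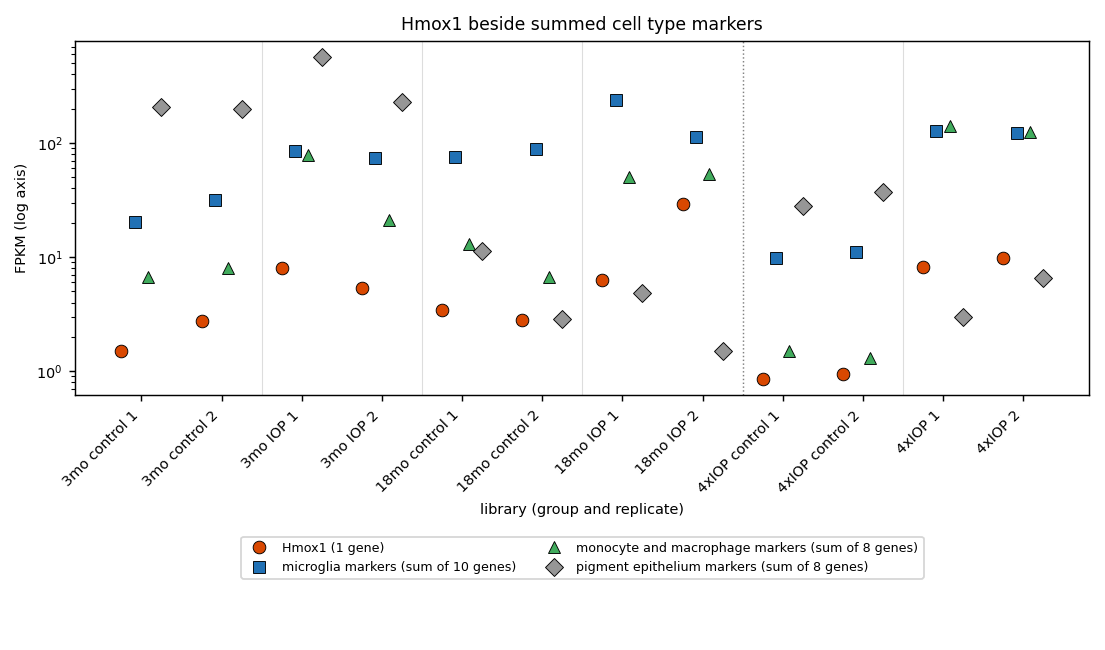
FPKM of Hmox1 and summed FPKM of 3 marker lists (log axis) in the 12 libraries, 1 symbol per list and library; the dotted line separates the 2 tables. Hmox1 and the monocyte and macrophage sum are higher in every treated library than in the controls of its age or series, and the pigment epithelium sum is above 200 FPKM only in the 3mo libraries.

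Nqo1 encodes a quinone reductase and is a standard readout of NRF2 activity. It was at 1.89 and 4.00 FPKM in 3mo control, 4.54 and 3.40 FPKM in 3mo IOP, 0.857 and 0.899 FPKM in 18mo control and 1.64 and 1.94 FPKM in 18mo IOP. The age groups did not overlap, in control eyes or in treated eyes, and the 2 young control libraries differed more from each other than the old ones. In control eyes Nqo1 fell with age by 1.25 ± 0.30 (SE) on the log2 scale (adjusted p = 0.0139), from a mean of 2.94 ± 1.49 to 0.878 ± 0.0297 FPKM (SD, n = 2). In treated eyes the difference was -0.96 ± 0.30 (SE) with an adjusted p of 0.0356, short of a 2-fold change. Nqo1 was called lower there with a pseudocount of 0.1 (-1.10) and with median-of-ratios (-1.03), quantile (-1.15) and voom (-1.25) scaling. It was not called there with the length trend removed, and over all alternatives this difference ranged from -1.25 to -0.60. The call in control eyes was lost without 3mo control replicate 2 (-0.79, adjusted p = 0.0471) and without 18mo control replicate 1 (-1.23, adjusted p = 0.0681) or replicate 2 (-1.27, adjusted p = 0.0695). The response to IOP at 18 months had a ratio of 2.04 and an adjusted p of 0.486. In the repeated series Nqo1 was at 1.17 and 1.41 FPKM in control and 1.63 and 3.06 FPKM in 4xIOP (adjusted p = 0.222).

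A group of 4 genes supplies and recycles glutathione. Slc7a11, the cystine carrier of the cystine-glutamate exchanger, had means of 0.491 ± 0.0403 and 1.17 ± 0.177 FPKM in 3mo control and 3mo IOP, and of 0.469 ± 0.0863 and 1.11 ± 0.000707 FPKM in 18mo control and 18mo IOP (SD, n = 2). In the repeated series the means were 0.477 ± 0.127 FPKM in control and 1.35 ± 0.307 FPKM in 4xIOP (SD, n = 2). Treated and control libraries did not overlap within either table, with controls at most at 0.530 FPKM and treated libraries from 1.05 FPKM in the single-IOP table, and at most at 0.567 and from 1.13 FPKM in the other. The log2 fold changes were 0.75 ± 0.21 at 3 months (adjusted p = 0.237), 0.73 ± 0.21 at 18 months (adjusted p = 0.227) and 0.91 ± 0.25 after 4 elevations (adjusted p = 0.0379), all ± SE, the last short of 2-fold on this scale although the ratio of means was 2.82. With a pseudocount of 0.1 in place of 0.5 it was 1.33 with an adjusted p of 0.0386 and was called.

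Gclc and Gclm encode the catalytic and the modifier subunit of glutamate-cysteine ligase, the enzyme that limits glutathione synthesis. Gclc differed little anywhere, with means between 9.501 and 12.9 FPKM in the single-IOP groups and log2 fold changes after IOP of 0.06, 0.24 and 0.15 at 3 months, at 18 months and after 4 elevations. The 95% intervals of these differences reached from -0.35 to 0.48, from -0.18 to 0.65 and from -0.29 to 0.60. Gclm was at 6.65 and 4.50 FPKM in 3mo control and 7.58 and 8.18 FPKM in 3mo IOP, and at 5.55 and 6.28 FPKM in 18mo control and 8.60 and 11.4 FPKM in 18mo IOP. Its treated and control libraries did not overlap in any of the 3 comparisons, yet none was called, with adjusted p of 0.635, 0.281 and 0.574. Gsr, which turns oxidized glutathione back into its reduced form, was at 3.42 and 3.96 FPKM in 4xIOP control and 5.53 and 5.63 FPKM in 4xIOP, a log2 fold change of 0.54 ± 0.19 (SE, adjusted p = 0.146). None of the glutathione genes was called between the ages.

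The thioredoxin and peroxiredoxin genes differed among themselves. Txnrd1, which encodes the cytosolic thioredoxin reductase, was at 7.19 and 4.60 FPKM in 3mo control, 8.28 and 6.72 FPKM in 3mo IOP, 8.60 and 8.52 FPKM in 18mo control and 11.8 and 20.3 FPKM in 18mo IOP. The highest value belonged to 18mo IOP replicate 2, the library with the highest Hmox1. Between the treated eyes Txnrd1 was higher at 18 months by 1.01 ± 0.29 (SE) on the log2 scale (adjusted p = 0.0262), from a mean of 7.4995 ± 1.11 to 16.1 ± 5.98 FPKM (SD, n = 2). The call was lost without 18mo IOP replicate 2 (0.63) and without 3mo IOP replicate 1 or replicate 2. It was also lost with median-of-ratios (0.91), quantile or voom scaling, with a pseudocount of 1, with no filter and with the length trend removed. In control eyes the log2 difference of Txnrd1 was 0.53 ± 0.29 (SE, adjusted p = 0.159). After 4 elevations Txnrd1 was at 9.76 and 10.9 FPKM against 6.61 and 6.93 FPKM (adjusted p = 0.154).

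Prdx1, a peroxiredoxin that reduces hydrogen peroxide, had the highest FPKM of the 10 genes in every library. It was at 86.4 and 189 FPKM in 3mo control and 181 and 163 FPKM in 3mo IOP, and at 39.3 and 34.8 FPKM in 18mo control and 64.0 and 68.0 FPKM in 18mo IOP. Young and old groups did not overlap. Prdx1 fell with age by 1.78 ± 0.33 (SE) in control eyes (adjusted p = 0.0073) and by 1.38 ± 0.33 (SE) in treated eyes (adjusted p = 0.0154) on the log2 scale. In control eyes the call was lost without 18mo control replicate 2 (adjusted p = 0.0535), and in treated eyes it was lost without any 1 of the 4 libraries, with adjusted p from 0.0537 to 0.0923. In the repeated series it was at 27.6 and 26.7 FPKM in control and 38.7 and 63.7 FPKM in 4xIOP (log2 fold change 0.86 ± 0.30, SE, adjusted p = 0.128). The higher value, as for Nqo1, was that of 4xIOP replicate 2, where short transcripts were relatively more abundant, and with the length trend removed the log2 fold changes after 4 elevations were 0.77 for Prdx1 and 0.55 for Nqo1, neither called. Srxn1, the sulfiredoxin that restores overoxidized peroxiredoxins, stayed between 8.57 and 16.4 FPKM over the 12 libraries and was called in no comparison.

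Nfe2l2 itself was at 11.9 and 13.6 FPKM in 3mo control and 9.36 and 7.30 FPKM in 18mo control, without overlap, a difference of -0.59 ± 0.21 (SE) with an adjusted p of 0.0514, and of 0.0284 with median-of-ratios scaling. Over all alternatives this difference ranged from -0.80 to -0.42, with the adjusted p on either side of 0.05. In the single-IOP comparisons Nfe2l2 was among the members that differed least, with 3mo IOP libraries at 15.9 and 11.51 FPKM and 18mo IOP libraries at 10.03 and 11.8 FPKM. In the repeated series it was at 4.27 and 3.92 FPKM in control and 6.77 and 8.76 FPKM in 4xIOP. The log2 fold change of 0.84 ± 0.21 (SE) had an adjusted p of 0.0237 and stayed short of 2-fold. With Hmox1 and Slc7a11, Nfe2l2 made 3 members with an adjusted p of at most 0.05 after 4 elevations, where 6.85% of all genes had such a p and were higher. For Nfe2l2 and Slc7a11 the adjusted p rose above 0.05 under some alternatives. Their log2 fold changes then ranged, over all alternatives, from 0.66 to 1.01 and from 0.62 to 1.39.

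**Figure D3:**
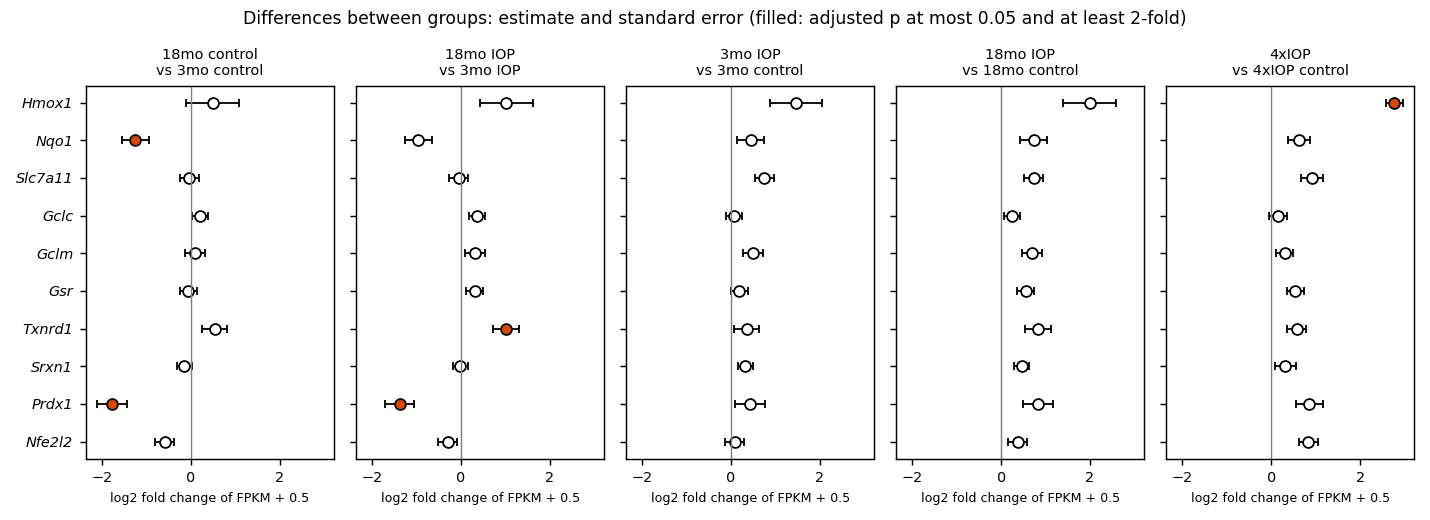
Log2 fold change of FPKM + 0.5 with its standard error for the 10 genes (rows) in 5 comparisons (panels); filled points passed both limits. The points of the 3 comparisons of treated with control eyes lie above 0 (at 3 months Gclc and Nfe2l2 fall below 0 under other scalings, and these and Nqo1 and Prdx1 with a library left out), and Hmox1 after 4 elevations, at 2.77, is the largest.

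Whether the response to a single elevation differed between the ages was tested by the interaction of IOP with age. None of the 10 genes passed, and none of the 13731 genes did, with 218 genes at an unadjusted p under 0.05. For Hmox1 the response at 18 months was larger by 0.53 ± 0.84 (SE) on the log2 scale, with a 95% interval from -1.40 to 2.45. For Slc7a11 the responses differed by -0.02 ± 0.30 (SE), with an interval from -0.70 to 0.66. For Prdx1 the difference was 0.40 ± 0.47 (SE). These intervals reach a 2-fold difference for 5 of the genes, so an equal response at the ages was not shown.

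The 2 members that fell with age in control eyes have the shortest transcripts of the 10, 1409 bases for Prdx1 and 1544 for Nqo1, and short transcripts were relatively more abundant in the young libraries. Hmox1, with 1569 bases, had a log2 difference of 0.49 ± 0.59 (SE), with a 95% interval from -0.87 to 1.85. With the trend against transcript length removed from each library, the age difference in control eyes was -1.34 for Prdx1 (adjusted p = 0.00319) and -0.92 for Nqo1 (adjusted p = 0.0142), the latter no longer 2-fold. In treated eyes it was -0.91 for Prdx1 and 0.84 for Txnrd1, and neither was called. The part of transcript length in these age differences was otherwise not tested. In control eyes the pigment epithelium list, 7 of 7 tested, and 5 of 7 retinal ganglion cell markers were also called lower with age, and 6 of 10 microglia and 3 of 6 Muller glia markers were called higher; their part was not tested.

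**Figure D4:**
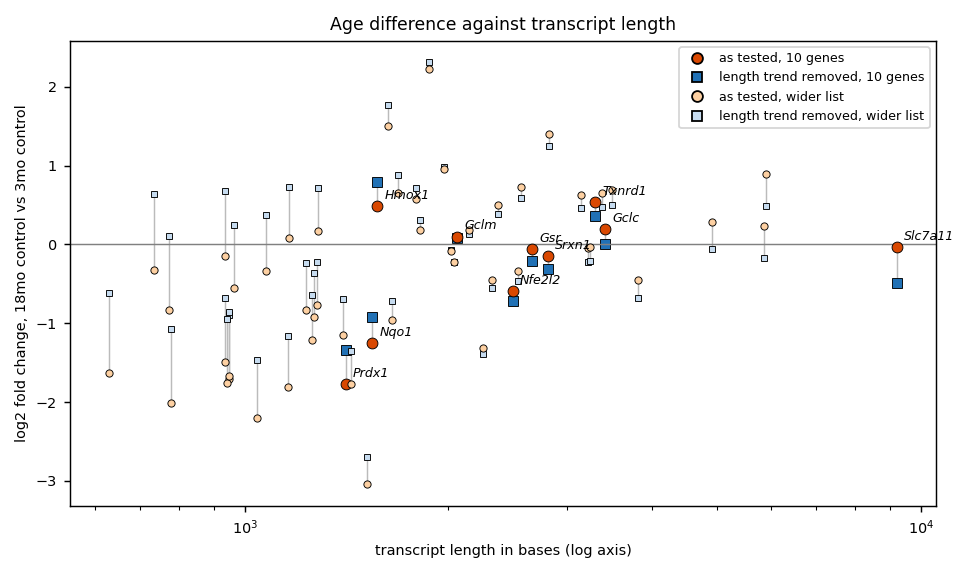
Log2 fold change between 18mo control and 3mo control (vertical axis) against transcript length (log axis) for the 10 genes, labelled, and the wider list, as tested (circles) and after the trend with length was removed from each library (squares), joined by a line per gene. Prdx1 moves from -1.78 to -1.34 and Nqo1 from -1.25 to -0.92.

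Of 48 further genes of the pathway, 47 were tested in the single-IOP table and 44 in the repeated-IOP table. In control eyes 3 were called higher and 13 lower with age, where 11.6% of all genes were called in each direction, and the median log2 fold change was -0.32 beside 0.16 over all genes. The 3 that rose are the small MAF genes, whose proteins pair with NRF2 and with BACH1. Maff rose by 2.23 ± 0.51 (SE, adjusted p = 0.0115), from 0.180 and 0.268 FPKM to 3.83 and 2.15 FPKM. Mafg rose by 1.51 and Mafk by 1.40. Those that fell encode antioxidant and detoxifying proteins: Gpx3, a secreted glutathione peroxidase, by 3.04 ± 0.32 (SE, adjusted p = 0.0032), from 33.1 and 63.2 FPKM to 6.46 and 4.02 FPKM, then Txn1 by 2.21, Gpx4 by 2.01, Blvra by 1.80, Prdx3 by 1.77 and Prdx4 by 1.76. With the length trend removed, Maff, Mafg, Mafk, Gpx3, Txn1, Gpx4, Blvra and Prdx3 were still called in the same direction and Prdx4 was not, and 9 of the list were called in place of 16. The 16 calls fell to 6 without 18mo control replicate 1, none of them higher, to 6 without 18mo control replicate 2, with 1 higher, and to 9 without 3mo control replicate 2, with 1 higher. Peroxiredoxins and thioredoxins had 5 of 8 genes called lower, and the NRF2 regulators and partners had none of 9.

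Between treated eyes 4 genes of the wider list were called higher at 18 months and 14 lower, where 10.2% and 11.6% of genes were. Maff was at 0.796 and 0.538 FPKM in 3mo IOP and at 8.08 and 28.3 FPKM in 18mo IOP, with replicate 2 the highest as for Hmox1 and Txnrd1, a rise of 3.76 ± 0.51 (SE, adjusted p = 0.0035). Mafk rose by 2.25, Gpx3 fell by 4.10, Txn1 by 1.96, Gpx4 by 2.01 and Prdx4 by 1.83. Osgin1, an oxidative stress-induced growth inhibitor, was also called higher, by 1.49, and Mafg by 1.05. The 18 calls fell to 4 without 3mo IOP replicate 1 and to 4 without 3mo IOP replicate 2, each time with Maff, Mafk and Gpx3 among them, and to 11 without 18mo IOP replicate 2 and to 11, 5 higher and 6 lower, with the length trend removed. In the same comparison 7 of 7 pigment epithelium markers and 7 of 7 retinal ganglion cell markers were called lower, and 5 of 6 Muller glia and 5 of 10 microglia markers higher. Pigment epithelium sums were 231 to 569 FPKM in 3mo IOP and 1.499 to 4.88 FPKM in 18mo IOP, and the part of these cells was not tested.

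After IOP the wider list had 2 of 47 genes called at 3 months, none of 47 at 18 months and 5 of 44 after 4 elevations, where 0.575%, 0.124% and 5.45% of all genes were called, the last counted higher. Its median log2 fold changes were 0.34, 0.38 and 0.26, beside 0.13, 0.09 and 0.10 over all genes. At 3 months Gpx3 rose by 1.98 ± 0.32 (SE, adjusted p = 0.0474), from 33.1 and 63.2 FPKM to 199 and 167 FPKM, and Sod3, an extracellular superoxide dismutase, rose by 1.70 ± 0.26 (SE, adjusted p = 0.0347), from 1.55 and 2.06 FPKM to 9.01 and 5.30 FPKM. Neither was called with median-of-ratios scaling (adjusted p of 0.135 and 0.0725), with no filter, with quantile or voom scaling, with the 2 groups fitted alone, without 3mo control replicate 1, or without 3mo IOP replicate 1 or 2. The pigment epithelium sum was 201 to 209 FPKM in 3mo control and 231 to 569 FPKM in 3mo IOP, and its part was not tested. At 18 months 10 of the 47 had an unadjusted p under 0.05, as did 1297 of all 13731 genes, and none was called. After 4 elevations the 5 called genes were all higher. Mgst1, a membrane-bound glutathione transferase, rose most, by 2.52 ± 0.27 (SE) from 2.12 and 2.31 FPKM to 10.995 and 20.7 FPKM. Prdx6 rose by 1.34, from 20.5 and 23.4 FPKM to 52.7 and 60.2 FPKM. The other three were Gstm1 at 1.24, Gpx1 at 1.16 and Blvrb, which reduces biliverdin, at 1.01. Mgst1 was called under every alternative tried, and each of the other 4 lost its call without at least 1 library. None of the regulators and partners was called after IOP.

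**Figure D5:**
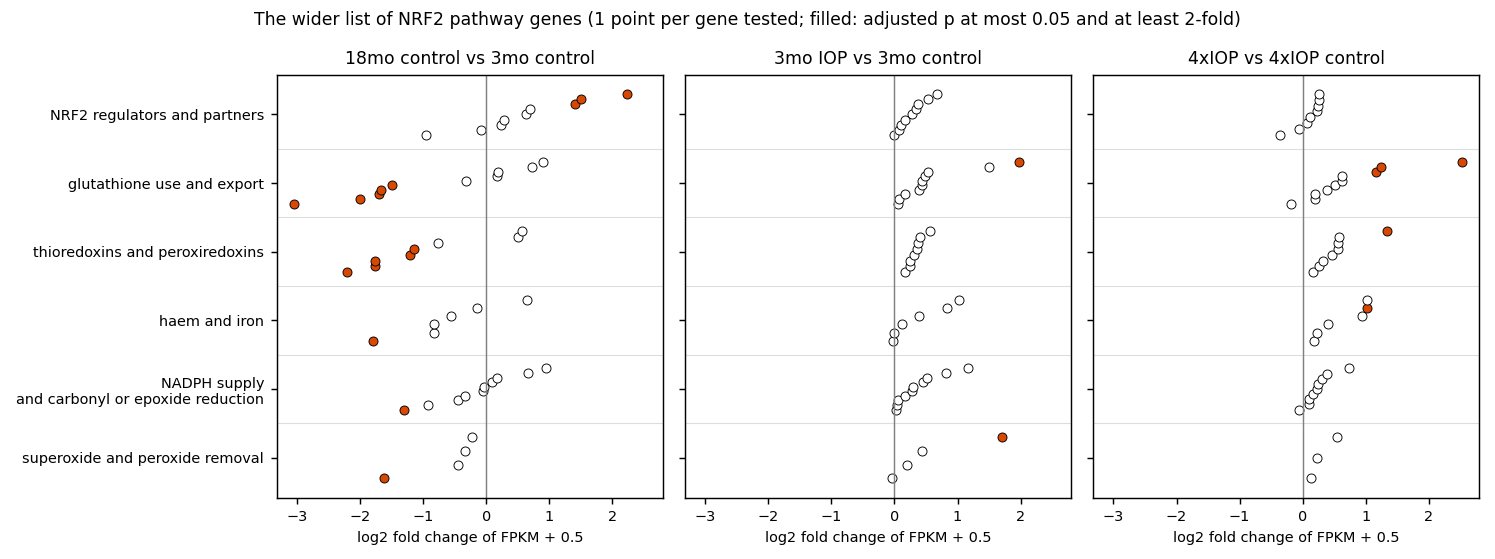
Log2 fold change of FPKM + 0.5 for each tested gene of the wider list, in 6 functional groups (rows) and 3 comparisons (panels); filled points passed both limits. In the age comparison 3 regulators are filled on the right and 13 genes of the other groups on the left, and after 4 elevations 5 genes are filled on the right.

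The genes nearest to Hmox1 were found by the root-mean-square difference of log2(FPKM + 0.5) over the 12 libraries, each table centred on its own mean, among 13058 genes tested in both tables. They were Cryzl2 at 0.25, Lrrc2 at 0.25, Slc6a2 at 0.31, Crym at 0.32 and Ccdc194 at 0.35, beside a median of 1.21 over all genes. In control libraries Slc6a2 was at most 0.085 FPKM and Ccdc194 at most 0.1 FPKM, below the 0.5 that was added. These 2 passed the filter only through treated libraries, and their nearness to Hmox1 depends on the amount added. Crym, which encodes the thyroid hormone-binding mu-crystallin, was at 81.1 and 153 FPKM in 18mo IOP, 27.0 and 22.6 FPKM in 18mo control, 113 and 186 FPKM in 4xIOP and 18.1 and 19.4 FPKM in 4xIOP control. Lrrc2 was at 72.4 FPKM in 18mo IOP replicate 2 and at 22.3 FPKM in replicate 1, the same order as Hmox1. Of the other members Txnrd1, at 0.88 and rank 538, and Slc7a11, at 0.89 and rank 569, were nearest, and Prdx1, at 1.27 and rank 8825, was farthest.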

How the data were processed

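Poly(A) RNA of whole retinas was sequenced in 12 libraries, 2 in each of 6 groups. The deposited values are FPKM that the authors made by aligning reads to mm10 (STAR 2.7.8a per the labels) and by counting, with HOMER, uniquely placed tags per locus over the exons of 1 isoform and 1 strand, scaled by that isoform's length and the library total. All 12 value columns were used and 0 were left out. FPKM times length came out as whole reads within 0.1 reads for at least 99.98% of the values checked in a library. From these reads depth was known, and read counts cover counting error only.

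The study tested counts; here FPKM were tested. Where a gene averaged 0.5 FPKM or more over a table, log2(FPKM + 0.5) was fitted in limma 3.58.1 (R 4.3.3) using lmFit, then eBayes allowing a mean-variance trend, and p-values were adjusted by Benjamini-Hochberg over that table. The fit of the single-IOP table took 8 libraries in 4 groups, and that of the repeated-IOP table its 4 libraries. The steps were tested on simulated data with known changes and independent noise. These data held no shift in transcript length between libraries, unlike the real ones. The 10 genes and all lists were chosen with earlier results of these data known. Named beside them are, in each comparison, at most 6 called genes of the wider list with the largest changes and the 5 genes nearest to Hmox1. Mafg, Mafk and Prdx4 between control eyes and Osgin1 and Mafg between treated eyes fall outside that rule and were chosen after their values were seen.

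Alternatives were pseudocounts of 0.1 and 1, no filter, a higher filter (2 FPKM), scaling by median-of-ratios or quantiles, removal of each library's trend with length (spline with 5 degrees of freedom), eBayes with no trend, voom on the recovered reads, fits of the 2 groups alone, a replicate block, the adjusted p alone and leaving out each library.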

Additional observations from a re-analysis of the deposited data

How the results depend on the processing

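Hmox1 after 4 elevations was called under all 16 alternatives, with a log2 fold change between 2.40 and 3.20. Of 1003 alternative values of single genes, 936 kept direction and side of both limits, 33 changed sign, 20 lost a call and 14 gained one.

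The 1 member called after 4 elevations became 2 with a pseudocount of 0.1 and with the length trend removed, and 3 by the adjusted p alone. The 2 called between control eyes became 1 with the length trend removed. The 2 called between treated eyes became 1 with a pseudocount of 1, with no filter (both Prdx1) and with quantile normalization (Nqo1), 0 with the length trend removed, and 3, with Nqo1 added, with a pseudocount of 0.1 and by the adjusted p alone; with median-of-ratios and voom the 2 were Nqo1 and Prdx1 in place of Prdx1 and Txnrd1. With each library left out the counts ranged from 1 to 3 after 4 elevations, from 0 to 2 between control eyes, from 0 to 2 between treated eyes and from 0 to 1 at 18 months. The 3 were called without 4xIOP replicate 1; 0 between control eyes were called without 18mo control replicate 2, and 0 between treated eyes without 3mo IOP replicate 1, 3mo IOP replicate 2 or 18mo IOP replicate 2. Of the wider list 16 genes were called between control eyes, 9 with the length trend removed, 28 by the adjusted p alone and from 6 to 23 with a library left out; between treated eyes 18 were called, 11 with the length trend removed and from 4 to 14 with a library left out; after 4 elevations 5 were called, 2 with no filter, 3 with other scalings and from 2 to 7 with a library left out; at 3 months 2 were called, 0 with no filter, other scalings or the 2 groups alone, and from 0 to 6 with a library left out.

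Size factors moved the median of all genes from 0.16 to 0.01 between control eyes and from 0.13 to -0.04 at 3 months. With median-of-ratios, quantile and voom scaling, Gclm between control eyes went from 0.10 to -0.060, -0.12 and -0.061, Gclc at 3 months from 0.06 to -0.12, -0.11 and -0.13, Nfe2l2 at 3 months from 0.08 to -0.11, -0.068 and -0.10, and the interaction of Slc7a11 from -0.02 to 0.0061, 0.10 and 0.079. With a library left out, values that changed sign ranged, between control eyes, from -0.13 to 0.056 (Slc7a11), -0.16 to 0.36 (Gclm) and -0.23 to 0.10 (Gsr); at 3 months from -0.021 to 0.89 (Nqo1), -0.11 to 0.23 (Gclc), -0.14 to 0.99 (Prdx1) and -0.14 to 0.31 (Nfe2l2); between treated eyes from -0.046 to 2.08 (Hmox1), -0.16 to 0.054 (Slc7a11) and -0.14 to 0.11 (Srxn1); and in the interaction from -0.54 to 1.59 (Hmox1), -0.17 to 0.75 (Nqo1), -0.13 to 0.090 (Slc7a11), -0.046 to 0.47 (Gclm) and -0.16 to 0.96 (Prdx1). The causes were not tested.

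Same-numbered libraries did not deviate together (correlations over genes of -0.28, -0.53 and -0.29), so the numbers were not taken as pairs; a replicate block gave 2 members called between control eyes, 2 between treated eyes, 1 after 4 elevations and 0 elsewhere, as without it, and of the wider list 0 in place of 2 at 3 months. With the pairing crossed, a choice made after seeing the data, 1 member was called at 18 months (Hmox1), 1 after 4 elevations (Hmox1) and 0 at 3 months, and of the wider list 6, 6 and 4.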
